A study of Saccharomyces cerevisiae with 4 samples.

Results

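Cell wall genes of the budding yeast Saccharomyces cerevisiae were followed after induction of Msn2A6, an allele of the stress activator Msn2. The set holds 38 listed genes for wall mannoproteins, glucan and chitin synthases and the enzymes that remodel both polymers. Members were chosen by gene name, through the locus tag of each yeast probe, and 37 of the 38 had a probe. The array held 6225 gene names, counting the files' own names for probes matched to no reference gene. HSP150, a member of the PIR family, was matched to no probe and is not analysed here.

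Both groups came from a strain labelled BY4741, a haploid laboratory strain of mating type a, carrying Msn2A6 under estradiol control, grown in YPD (rich glucose medium) at 30 °C. The treated group, Msn2A6_90min, received 6 nM 17β-estradiol and was harvested after 90 min, and the untreated group, Msn2A6_0min, was harvested with no estradiol. Each group held 2 biological replicates, each measured as total RNA on 1 single-colour Agilent array. No untreated culture at 90 min was analysed here, so estradiol, Msn2A6 and 90 min of further growth cannot be told apart.

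The yeast wall is a layer of branched glucan with a little chitin, to which highly mannosylated proteins are attached. Most of these mannoproteins are linked through the remnant of a GPI anchor to the short glucan side chains, while PIR proteins bind the main glucan directly. Glucan and chitin are made at the plasma membrane and are then cut, elongated and joined by enzymes outside the cell, and the wall is known to be rebuilt when cells meet stress or stop growing.

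Between 6151 and 6191 of 6256 yeast probes were well above background on each array, and no spot was saturated. The spike-in controls, relative to the 75th percentile of yeast spots, stood at 0 and -0.04 at 90 min and -0.59 and -0.35 at 0 min on the log2 scale. MSN2 signal rose 5.55-fold (log2 change 2.47 ± 0.09, SE). In units of the 75th percentile of each array it was 0.0378 and 0.0324 at 90 min, against 0.00650 and 0.00611 at 0 min. These are low signals, so the fold is a weak measure of the size of induction. Whether the MSN2 probe reads the induced allele, the native gene or both was not tested. MSN4, its relative, rose by 0.48 ± 0.06 on the log2 scale. Mating type a genes were all detected, and 6 of 6 fell, where 46.2% of all genes fell. The summed signal of these 6 was 2.24 to 2.35 at 90 min and 4.44 to 4.60 at 0 min, in the same units. All 4 MATalpha genes were marked well above background too, with single signals between 0.00212 and 0.125. The auxotrophic marker genes HIS3, LEU2, MET17 and URA3, which BY4741 lacks in whole or in part, were also well above background on all 4 arrays, with single signals between 1.73 and 34.1. Every MATalpha signal thus lay below the 75th percentile of its array, and every auxotrophic marker signal above it. Whether the cultures carried copies of the auxotrophic marker genes was not tested. None of the strain and mating type markers was at 0, and their part in the results below was not tested.

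The wall genes split. At 90 min 6 of them were more than 2-fold higher, among them the mannoprotein genes SPI1, TIP1, TIR1 and YGP1 and the PIR gene PIR3, while most of the synthases, transglycosylases and glucanases were lower. Of the 37 measured, 8 rose, 26 fell and 3 did not pass the test (limma, adjusted p under 0.05 over all probes tested). Among all 6144 genes tested, 76.5% were called, 30.3% as risen and 46.2% as fallen. The members' median log2 change was -0.47, where the median of all genes was -0.13. In a bulk culture, fewer cells of a type and less RNA per cell cannot be told apart. With spike-in scaling 745 genes in all rose and 4090 fell, and with no scaling between arrays 1288 rose and 3532 fell, against 1860 and 2840 on the scale used here.

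At least 2-fold rises were found for 6 members and at least 2-fold falls for 10. Over all genes 8.92% rose and 3.87% fell by that much. A further description is where the members lay in the distribution of all changes. Above its 90th percentile (0.91) lay 6 members, and below its 10th percentile (-0.70) lay 16. For 36 of the 37 the 90 min and 0 min arrays did not overlap, as was so for 88.4% of all genes. Below, the signal of each array is given as a multiple of the 75th percentile of its yeast spots, so a value can be compared between arrays for 1 gene but not between genes.

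**Figure D1:**
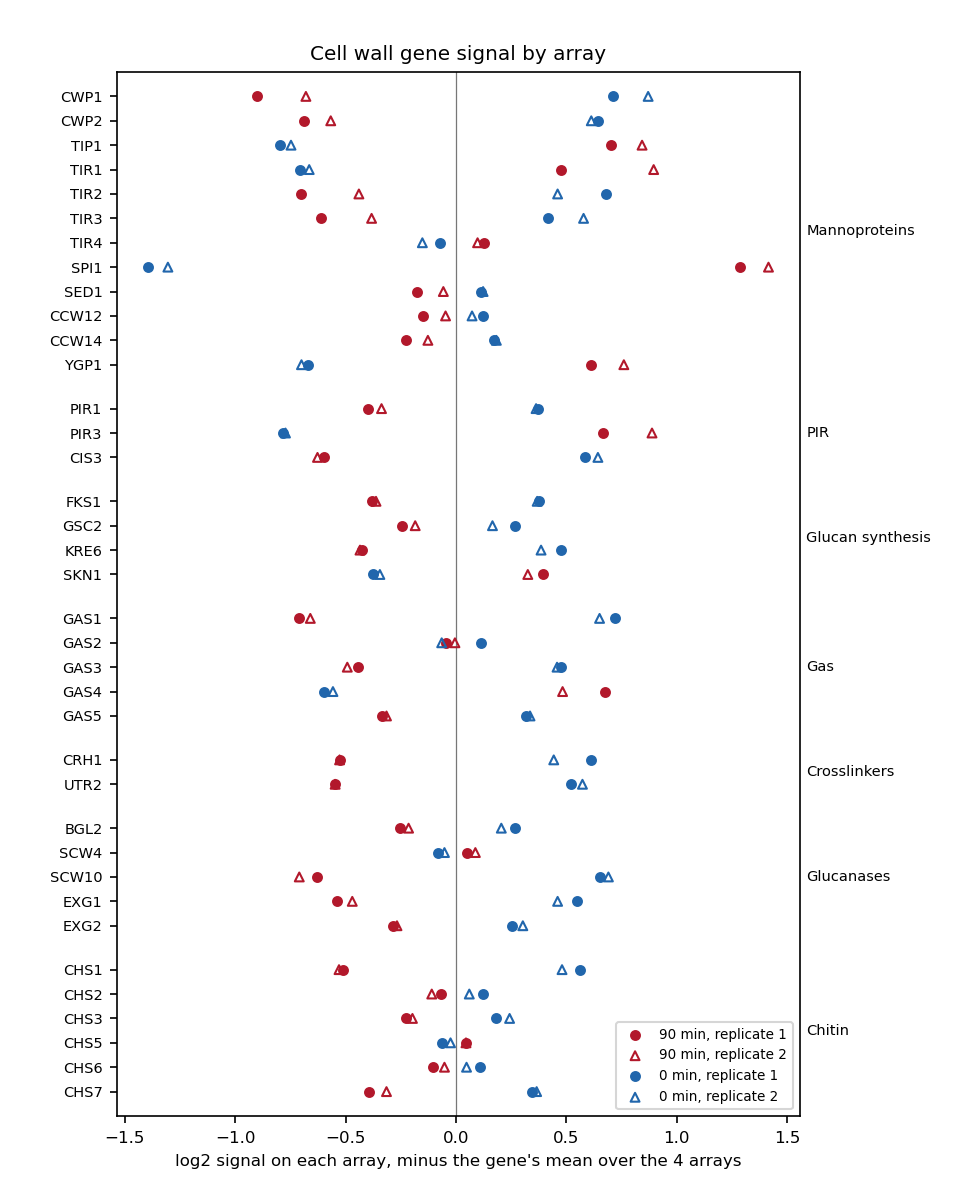
Signal of the 37 measured wall genes on each array (horizontal axis, log2 signal minus the gene's own mean over the 4 arrays), grouped by role, with red for 90 min and blue for 0 min and a marker for each replicate. The groups are apart for 36 of the 37 genes, with SPI1 showing the widest gap, and GAS2 is the gene whose arrays overlap.

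Among the mannoproteins, SPI1 moved most. SPI1 (YER150W), which encodes a wall protein of weak acid resistance and stationary phase, gave a signal of 28.9 and 31.5 at 90 min, against 4.50 and 4.81 at 0 min. Both treated arrays lay far above both untreated ones. The rise was 6.48-fold (log2 change 2.70 ± 0.07, SE, limma adjusted p = 4.31e-07), and 80 of the 6144 genes rose more. TIP1 (YBR067C), a mannoprotein gene known to respond to cold and heat shock, gave 6.13 and 6.80 at 90 min, against 2.18 and 2.24 at 0 min. Its rise was 2.92-fold (1.54 ± 0.07, adjusted p = 3.68e-06).

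YGP1 (YNL160W) encodes a secreted glycoprotein that cells make when nutrients run low. Its signal was 19.0 and 21.2 at 90 min, against 7.84 and 7.65 at 0 min, a rise of 2.59-fold (1.37 ± 0.07, adjusted p = 6.44e-06). As for SPI1 and TIP1, the replicates differed by far less than the groups.

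The TIR genes, which encode serine- and alanine-rich mannoproteins known from growth in the cold or without oxygen, did not move together. TIR1 (YER011W) gave 2.59 and 3.45 at 90 min, against 1.14 and 1.17 at 0 min. That rise of 2.59-fold (1.37 ± 0.13, adjusted p = 0.000103) had the widest replicate spread of any member, an SD of 0.29 at 90 min. TIR2 (YOR010C) gave 0.715 and 0.857 at 90 min, against 1.86 and 1.61 at 0 min, a fall of 2.21-fold (-1.14 ± 0.11). TIR3 (YIL011W) lay at 0.0791 and 0.0931 at 90 min, against 0.162 and 0.180 at 0 min (-0.99 ± 0.10). So 2 of the 4 fell, with no overlap between groups. TIR4 (YOR009W), with 0.0459 and 0.0448 at 90 min and 0.0398 and 0.0377 at 0 min, rose by 0.23 ± 0.06 on the log2 scale (adjusted p = 0.0109). That call was lost in 4 of the 15 alternative settings, among them without replicate 2 at 0 min (0.19, adjusted p = 0.0694), and its sign turned with spike-in scaling (-0.23).

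CWP1 and CWP2, small mannoproteins of growing cells, both fell. CWP1 (YKL096W) gave 1.25 and 1.46 at 90 min, against 3.84 and 4.28 at 0 min, the largest fall of any member at 3.00-fold (-1.58 ± 0.09, adjusted p = 1.19e-05). Only 41 of the 6144 genes fell more. CWP2 (YKL096W-A) gave 10.4 and 11.4 at 90 min, against 26.1 and 25.6 at 0 min, a fall of 2.38-fold (-1.25 ± 0.06). The remaining mannoproteins moved little. SED1, a structural GPI protein of stationary cells, had a signal of 30.0 and 32.7 at 90 min, against 36.9 and 37.1 at 0 min (-0.24 ± 0.06, adjusted p = 0.0126). CCW12, an abundant mannoprotein of growing cells, had 34.9 and 37.6 at 90 min, against 42.1 and 40.9 at 0 min (-0.19 ± 0.06, adjusted p = 0.026). Both falls passed, but they were small. The SED1 call was lost without replicate 1 at 90 min (-0.18), replicate 1 at 0 min (-0.24) or replicate 2 at 0 min (-0.23), and the CCW12 call without the same arrays (-0.14, -0.17 and -0.22) and with median scaling (-0.15). CCW14, a glycoprotein of the inner wall layer, had 5.96 and 6.42 at 90 min, against 7.89 and 7.96 at 0 min, and fell by 0.36 ± 0.06 on the log2 scale.

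The PIR proteins, which carry internal repeats and bind the wall's main glucan, also divided. PIR3 (YKL163W) gave 6.26 and 7.30 at 90 min, against 2.30 and 2.32 at 0 min. It rose 2.92-fold (1.55 ± 0.08, adjusted p = 7.73e-06). Its relative PIR1 (YKL164C) gave 2.25 and 2.35 at 90 min, against 3.84 and 3.82 at 0 min, and fell 1.66-fold (-0.74 ± 0.06, adjusted p = 4.11e-05). In the RefSeq gene table (assembly R64) these are direct neighbours transcribed away from each other, so the gene that rose and the gene that fell share the stretch between their starts. CIS3 (YJL158C), also known as PIR4, gave 7.41 and 7.24 at 90 min, against 16.9 and 17.5 at 0 min, a fall of 2.34-fold (-1.23 ± 0.06). Its neighbour in that table is HSP150, the member with no matched probe. Other members next to each other were CWP2 and CWP1, which run the same way and both fell, and TIR4 and TIR2, which converge and differed in sign.

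**Figure D2:**
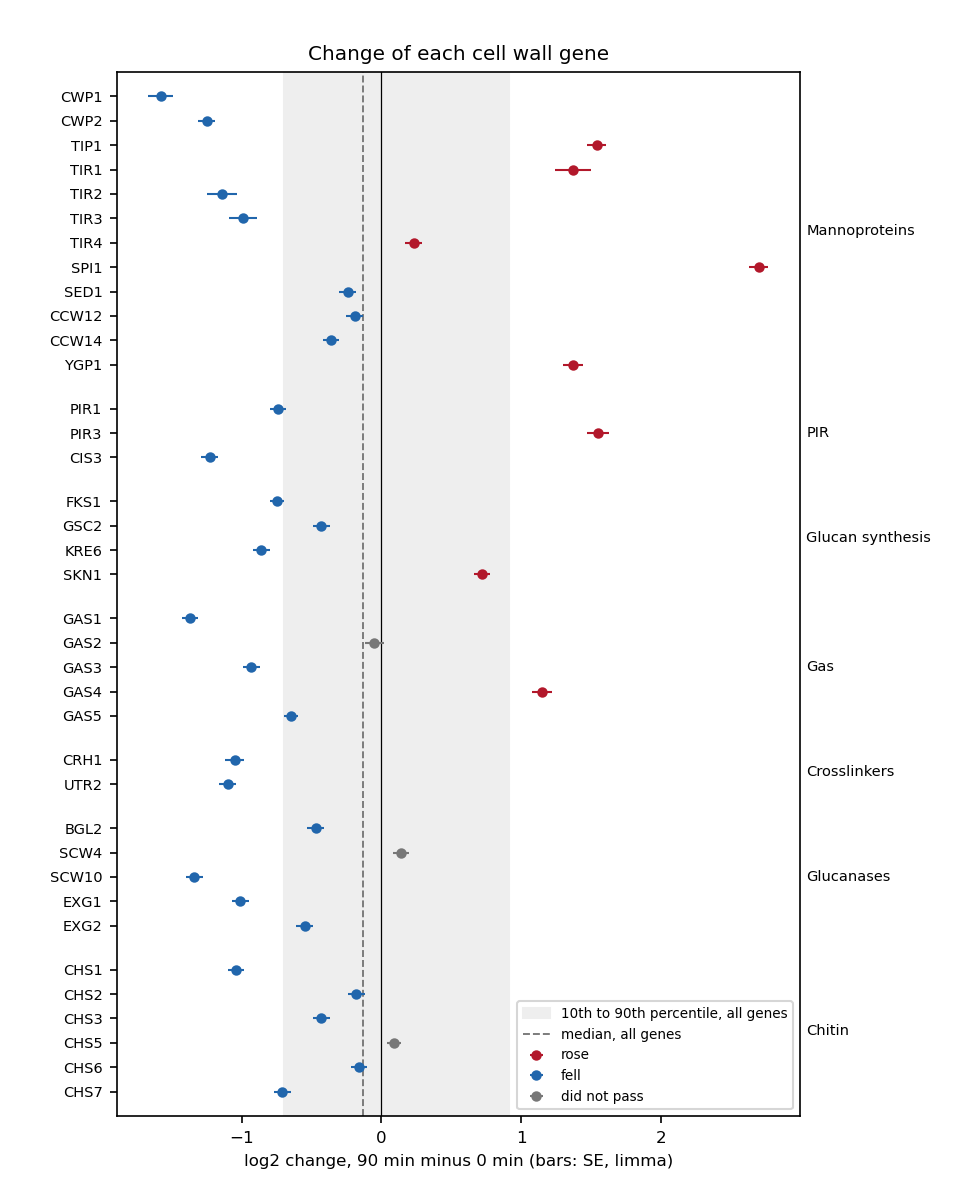
Log2 change of each wall gene (horizontal axis, 90 min minus 0 min, bars are the SE from limma), grouped by role, with red for genes that rose, blue for genes that fell and grey for those that did not pass. The grey band runs from the 10th (-0.70) to the 90th percentile (0.91) of all genes and the dashed line is their median (-0.13). Points to the right of the band belong to TIP1, TIR1, SPI1, YGP1, PIR3 and GAS4.

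Of the 4 genes of glucan synthesis 3 fell and 1 rose, where 46.2% of all genes fell and 30.3% rose. FKS1 (YLR342W), the catalytic subunit of glucan synthase in growing cells, had a signal of 2.11 and 2.14 at 90 min, against 3.57 and 3.56 at 0 min. The fall of 1.68-fold (-0.75 ± 0.05, adjusted p = 3.18e-05) exceeded the replicate spread, with an SD of 0.01 or less in each group. GSC2 (YGR032W), also called FKS2, is the alternative subunit known from stress, poor carbon sources and sporulation. It too was lower, with 1.68 and 1.75 at 90 min, against 2.39 and 2.24 at 0 min (-0.43 ± 0.06, adjusted p = 0.000749). Both subunits were thus lower on each treated array.

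KRE6 and SKN1 encode related membrane proteins needed for the side-chain glucan that holds the GPI mannoproteins. KRE6 (YPR159W) had 0.712 and 0.709 at 90 min, against 1.33 and 1.25 at 0 min, a fall of 1.82-fold (-0.86 ± 0.06). SKN1 (YGR143W) moved the other way, with 0.326 and 0.309 at 90 min, against 0.190 and 0.195 at 0 min, a rise of 1.65-fold (0.72 ± 0.06, adjusted p = 5.41e-05). Neither gene's groups overlapped. With spike-in scaling the rise of SKN1 was 0.27 and did not pass (adjusted p = 0.111).

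The Gas family of transglycosylases, which lengthen glucan chains at the cell surface, did not move as a whole. GAS1 (YMR307W), the main enzyme of growing cells, had 3.72 and 3.85 at 90 min, against 10.1 and 9.55 at 0 min, a fall of 2.59-fold (-1.37 ± 0.06, adjusted p = 3.3e-06). GAS3 (-0.93 ± 0.06) and GAS5 (-0.65 ± 0.05), which growing cells also use, fell 1.91-fold and 1.57-fold. GAS4 (YOL132W), known from spore wall formation, had 0.0329 and 0.0290 at 90 min, against 0.0137 and 0.0141 at 0 min, and rose 2.22-fold (1.15 ± 0.07, adjusted p = 1.97e-05). Its signal was low in both groups, though well above background on all 4 arrays. The GAS4 rise was below 2-fold in the deposited value table (0.81) and with spike-in scaling (0.70). GAS2, the other spore enzyme, gave 0.0290 and 0.0297 at 90 min, against 0.0322 and 0.0286 at 0 min, and did not pass (-0.05 ± 0.07, adjusted p = 0.561). The GAS2 change was -0.32 with quantile normalization and -0.29 in the deposited value table, where it passed.

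Spore wall genes outside the set were examined beside GAS4. Where 30.3% of all genes rose and 46.2% fell, 6 of 10 such genes rose and 2 fell (median 0.48). Their summed signal was 0.891 and 0.897 at 90 min, against 0.438 and 0.439 at 0 min. Most of that gap came from the SHC1 probe: without it the sum of the other 9 was 0.320 and 0.312 at 90 min, against 0.303 and 0.299 at 0 min. OSW1, of the outer spore wall, had the largest change (2.31 ± 0.11), followed by SHC1, the sporulation partner of chitin synthase III (2.07 ± 0.06), and SPS2 (1.43 ± 0.13). OSW1 signals were low, 0.0145 and 0.0167 at 90 min, against 0.00345 and 0.00286 at 0 min. Those of SPS2 were low too, 0.00474 and 0.00456 at 90 min, against 0.00149 and 0.0020 at 0 min, which limits the size of both changes. None was at 0, and what part sporulating cells have in the GAS4 result was not tested.

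CRH1 (YGR189C) and UTR2 (YEL040W), the enzymes that join chitin to glucan, fell alike. CRH1 had 2.52 on both arrays at 90 min, against 5.54 and 4.91 at 0 min (2.07-fold, -1.05 ± 0.07). UTR2 had 2.86 on both arrays at 90 min, against 6.01 and 6.25 at 0 min (2.14-fold, -1.10 ± 0.06). Treated replicates of each differed by less than the last printed digit.

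In the glucanosyltransferase and glucanase family, 4 of 5 fell, beside 46.2% of all genes. SCW10 (YMR305C), a wall-bound relative of Bgl2, gave 1.67 and 1.58 at 90 min, against 4.05 and 4.18 at 0 min, a fall of 2.54-fold (-1.34 ± 0.06, adjusted p = 3.59e-06). Its close relative SCW4 (YGR279C) gave 12.5 and 12.8 at 90 min, against 11.4 and 11.6 at 0 min, and did not pass (0.14 ± 0.06, adjusted p = 0.0595). The SCW4 arrays did not overlap, and its call depends on the setting: it passed upward with median scaling (0.18, adjusted p = 0.0258), while spike-in scaling put it at -0.32. EXG1 (YLR300W), the main secreted exoglucanase, gave 3.37 and 3.53 at 90 min, against 7.18 and 6.72 at 0 min, a fall of 2.01-fold (-1.01 ± 0.06). Smaller falls were found for BGL2, an abundant glucanosyltransferase of the wall (1.39-fold, -0.47 ± 0.06), and for EXG2, a second exoglucanase (1.47-fold, -0.55 ± 0.06).

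Of the 6 chitin genes 5 fell and none rose, where 46.2% of all genes fell and 30.3% rose. CHS1 (YNL192W), the synthase that repairs the wall when daughter cells separate, had 0.625 and 0.614 at 90 min, against 1.31 and 1.24 at 0 min, a fall of 2.06-fold (-1.04 ± 0.06, adjusted p = 9.89e-06). CHS3 (YBR023C), the synthase of most wall chitin, had 1.01 and 1.02 at 90 min, against 1.33 and 1.40 at 0 min (1.34-fold, -0.43 ± 0.06). CHS7 (YHR142W), which lets Chs3 leave the endoplasmic reticulum, fell 1.63-fold (-0.71 ± 0.06). All 3 were lower on both treated arrays. CHS2, the synthase of the primary septum, had 1.26 and 1.23 at 90 min, against 1.44 and 1.38 at 0 min (-0.18 ± 0.06, adjusted p = 0.0266). Chs5 and Chs6 carry Chs3 to the cell surface. CHS6 had 0.153 and 0.160 at 90 min, against 0.177 and 0.171 at 0 min (-0.16 ± 0.06, adjusted p = 0.0442), and CHS5 did not pass (0.09 ± 0.05, adjusted p = 0.166). The CHS2 call was lost when any single array was left out (changes of -0.21 to -0.15) and with median scaling (-0.13). That of CHS6 was lost in 8 of the 15 alternatives, when any single array was left out (-0.18 to -0.13) and with median scaling (-0.11), quantile normalization (-0.13), normexp correction (-0.11) and the deposited value table (-0.11). CHS5 was at -0.36 with spike-in scaling, where it passed downward.

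Genes of daughter cell separation and cyclins were read beside the chitin genes and glucanases, since several wall enzymes are made at set points of the cell cycle. Of 14 separation genes 13 fell, beside 46.2% of all genes. The median of the list was -1.29, and its summed signal was 9.62 and 9.51 at 90 min, against 19.1 and 18.6 at 0 min. SCW11 (-1.83 ± 0.06), DSE4 (-1.73 ± 0.08) and DSE2 (-1.58 ± 0.07), glucanase and wall genes of the daughter side, led that list, and SIC1, a cell cycle inhibitor gene named here after its values were seen, was the 1 gene that rose (0.70 ± 0.05). Of 7 cyclin and mitotic exit genes 7 fell, CLN2 (-1.37 ± 0.06), CLB6 (-1.33 ± 0.10) and CLB2 (-1.18 ± 0.07) most. Their summed signal was 1.69 and 1.73 at 90 min, against 3.36 and 3.53 at 0 min. The part of cell cycle position in the falls of wall genes was not tested.

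**Figure D3:**
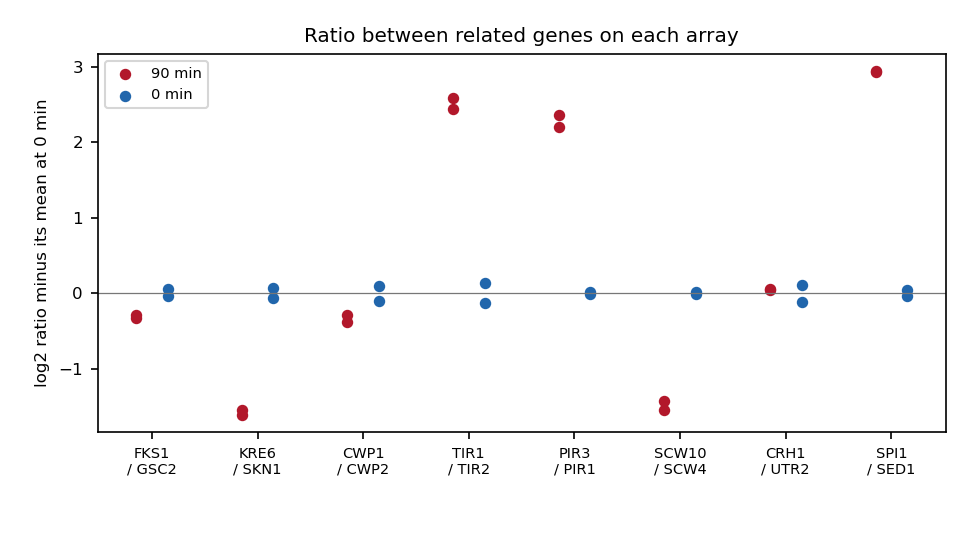
Log2 ratio between the signals of 8 pairs of wall genes on each array (vertical axis, minus the pair's mean at 0 min), with red for 90 min and blue for 0 min, 2 arrays each. The ratios of SPI1 to SED1, TIR1 to TIR2 and PIR3 to PIR1 lie above their 0 min values by 2.94, 2.52 and 2.28, those of KRE6 to SKN1 and SCW10 to SCW4 lie below by 1.58 and 1.48, and that of CRH1 to UTR2 overlaps.

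Pairs of related members were then set against each other on the same array, which cancels a constant factor between arrays but not quantile normalization, under which the pairs were not computed. The log2 ratio of SPI1 to SED1 signal was -0.06 and -0.05 at 90 min, against -3.03 and -2.95 at 0 min. For TIR1 to TIR2 it was 1.86 and 2.01 at 90 min, against -0.71 and -0.45 at 0 min, and for PIR3 to PIR1 1.47 and 1.63 at 90 min, against -0.74 and -0.72 at 0 min. These shifts of 2.94, 2.52 and 2.28 were many times the replicate spread. The ratio of KRE6 to SKN1 was 1.13 and 1.20 at 90 min, against 2.81 and 2.68 at 0 min, and that of SCW10 to SCW4 was -2.91 and -3.02 at 90 min, against -1.49 and -1.47 at 0 min. FKS1 to GSC2 and CWP1 to CWP2 shifted less, by -0.31 and -0.33, with no overlap. CRH1 to UTR2 shifted by 0.05, and its arrays overlapped. With 2 arrays a group the exact two-sided permutation test cannot go below p = 0.333, which 7 of the 8 pairs gave, so these are descriptions. A ratio of 2 probes has no meaning as a level, and whether a probe also reads its relative's transcript was not tested.

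Further genes of the wall were counted from 9 related lists, with 121 genes in all, of which 24 rose, 77 fell and 20 did not pass. That is 19.8% risen and 63.6% fallen, beside 30.3% and 46.2% of all genes. With spike-in scaling 7 of the 121 rose and 96 fell. The median over these lists was -0.35. In the list of 16 other remodelling enzymes 13 fell and 1 rose (median -0.64). SCW11, DSE4 and DSE2 led it too, but these genes, CTS1 and EGT2 are entered in the daughter separation list as well. The 2 lists are therefore not independent.

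Among 22 other wall mannoproteins 5 rose (22.7%) and 12 fell (54.5%), beside 30.3% and 46.2% of all genes. FLO10, a flocculin gene, was the largest change upward, with a signal of 0.231 and 0.230 at 90 min, against 0.0743 and 0.0714 at 0 min (3.16-fold, 1.66 ± 0.06). SRL1 (-1.60 ± 0.07) and TOS6 (-1.29 ± 0.07), both mannoprotein genes, fell most. No other gene of the list moved as far as these 3.

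Genes that make the polymers' precursors and side chains are given here by their counts, beside 46.2% fallen and 30.3% risen over all genes. Of 11 genes of chitin precursors and Chs3 transport 7 fell and none rose, led by PCM1 (-0.80 ± 0.06) and GFA1 (-0.67 ± 0.06), of amino sugar synthesis, and SKT5 (-0.75 ± 0.06), the activator of Chs3. Of 9 genes of side-chain glucan assembly 5 fell and 2 rose, with KNH1 (-0.81 ± 0.06), KRE1 (0.57 ± 0.07) and KEG1 (-0.48 ± 0.06) the largest. Of 22 genes of mannan and O-mannosylation 15 fell and 3 rose. MNN1 (-1.30 ± 0.06) and MNN10 (-0.82 ± 0.09), of mannan synthesis, fell most, while MNN4, which promotes mannosylphosphate transfer, rose (0.74 ± 0.08).

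The wall integrity pathway senses wall stress at the membrane and signals through Rho1 and a kinase cascade to wall genes. Of its 16 genes 6 rose (37.5%) and 9 fell (56.2%), beside 30.3% and 46.2% of all genes. The median was -0.21, where that of all genes was -0.13. ROM1, an exchange factor for Rho1, rose (1.19 ± 0.06), as did the kinase gene MKK2 (1.13 ± 0.07), while the sensor gene MID2 fell (-1.13 ± 0.05). This list moved both ways, as did the genes of the whole array.

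**Figure D4:**
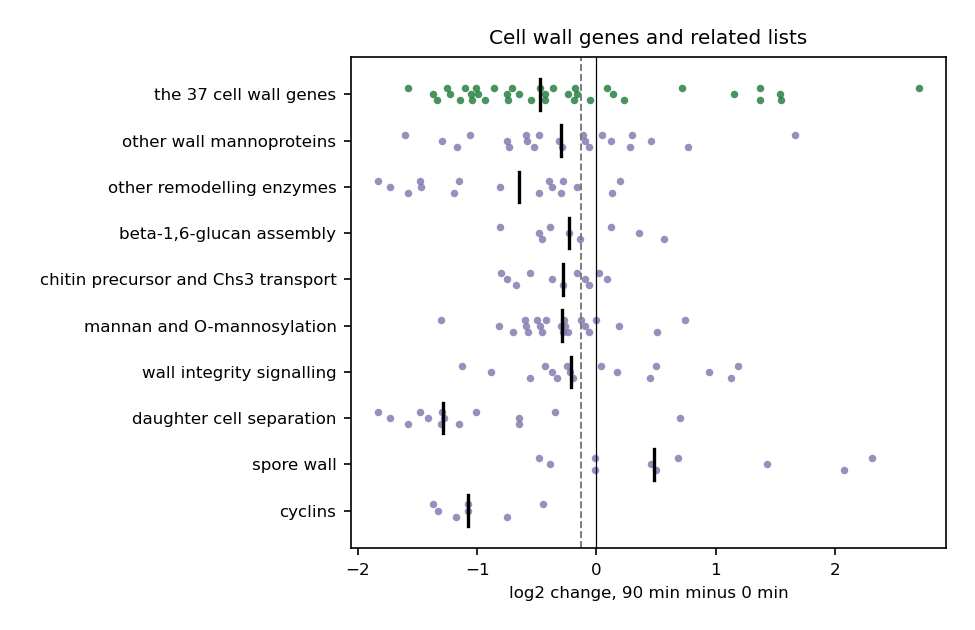
Log2 change (horizontal axis, 90 min minus 0 min) of each gene in the set of 37 wall genes (green) and in 9 related lists (purple), with a black bar at each median and a dashed line at the median of all genes (-0.13). The wall genes spread from -1.58 to 2.70 with a median of -0.47, daughter separation genes and cyclins have medians of -1.29 and -1.08, and the spore wall list has a median of 0.48.

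**Figure D5:**
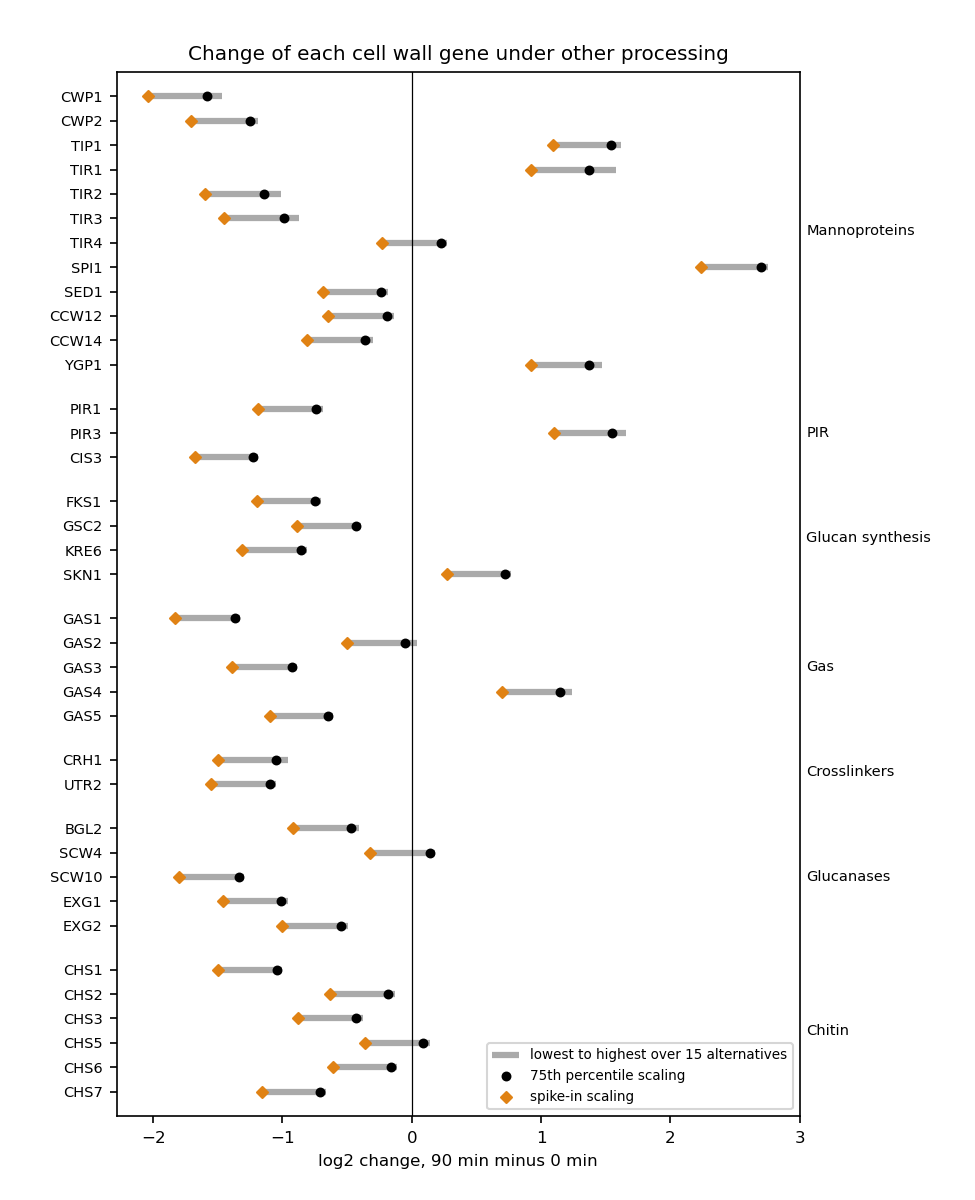
Log2 change (horizontal axis, 90 min minus 0 min) of each wall gene on the scale used here (black), with spike-in scaling (orange) and as the range over 15 alternatives (grey). Spike-in scaling gives the lowest value for each gene and lowers every change by 0.45, and SPI1, PIR3, TIP1, TIR1, YGP1, GAS4 and SKN1 stay above 0 under it.

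Scaling by 1 factor per array shifts every gene alike, while quantile normalization moved GAS4 to 0.91 and YGP1 to 1.41. With spike-in scaling the members' median was -0.92, that of all genes -0.58, and 6 members rose and 28 fell. Of the 34 members that passed, 28 kept their direction and their side of the threshold in all 15 alternatives, and the others were TIR4, SED1, CCW12, SKN1, CHS2 and CHS6. The 2 other filters and the mean of a gene's probes could not alter a member's log2 change. Each measured member had 1 probe, well above background on every array. The 2 arrays per group limit the precision. The median log2 gap between replicate arrays, with duplicate spots averaged, was 0.0694 at 90 min and 0.0658 at 0 min, so p-values rest on a small spread. Between single duplicate spots of 1 array it was 0.0664 to 0.0739, which is not a like measure.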

How the data were processed

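Total RNA from 4 samples was measured on 4 single-colour Agilent yeast arrays on 1 slide. Whether samples of the same replicate number came from 1 culture is not given in the labels. The deposited scanner files hold spot intensity from Agilent Feature Extraction 10.7.3.1, background-subtracted and detrended, per the file headers. The deposited value table holds log2 values, and its steps are not given in the sources used here beyond the tool limma in the submitters' processing notes.

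From each array's log2 intensity the 75th percentile of its yeast spots was subtracted. Duplicate spots (2 per probe) were then averaged without those marked as outliers. Of 6256 probes, 6175 were tested, those for which either group had both arrays well above background. Locus tags named 5748 probes and RefSeq accessions 17 more, and the brightest probe stood for a gene. Another 491 probes kept the scanner files' name, and each such name was counted as a gene in totals and shares over all genes. Each matched member had 1 probe. The test was the moderated one of limma (version 3.58.1, R 4.3.3, eBayes, two-sided, Benjamini-Hochberg over probes). Figures used Python 3.11.15 and matplotlib 3.10.9. The pipeline was tested on simulated data. The arrays' median signals were 2969 to 3697, with median backgrounds of 20.5 to 21. Nothing in the labels beyond the words biological replicates says how cultures were separated, so p-values measure the spread between these arrays.

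Members and lists were chosen with earlier results of these data known. Named genes are all members, the 3 called genes with the largest change in each related list, MSN2, MSN4 and the strain and mating type markers. SIC1 falls outside this rule. A planned motif search was not run, since promoter sequences were not used here. Alternatives were 4 other scalings, normexp (offset 50), the deposited table, 2 other filters, a replicate block, leaving out each array, an intensity trend and the mean of a gene's probes.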

Additional observations from a re-analysis of the deposited data

How the results depend on the processing

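Most wall results kept their direction and side of the threshold. Over the 15 alternatives 6 to 9 members rose and 22 to 28 fell. No scaling between arrays gave a median of -0.66 for members and -0.32 for all genes, and spike-in scaling gave -0.92 and -0.58. With spike-in scaling 745 genes in all rose, 7 genes of the related lists rose, and 3 members rose and 18 fell at least 2-fold. Quantile normalization, normexp correction, no scaling and the deposited value table each gave 5 members that rose at least 2-fold. Signs turned for TIR4 (-0.23), SCW4 (-0.32) and CHS5 (-0.36) with spike-in scaling, for SCW4 (-0.06) and CHS5 (-0.10) with no scaling, and for GAS2 (0.04) without replicate 1 at 0 min (range -0.14 to 0.04 when each array was left out). Of these, TIR4 had passed before. After normexp correction the shift of the SPI1 to SED1 ratio was 3.02. With the replicate number as a block 9 members rose and 26 fell. The labels do not say what a shared number marks, and deviations of same-numbered arrays from their group means correlated at 0.20 over probes. Low signals limit the sizes for GAS2, GAS4 and TIR4, and for MSN2, OSW1 and SPS2 outside the set. The cause of these differences between settings was not tested.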
